A study of Mus musculus with 13 samples.

Results

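Alveolar macrophages of mice that drank metformin before a saline instillation were compared with those of mice that received vehicle before saline. The comparison held 7 of the 13 samples of the series, chosen by the treatment and instillate in the sample labels: 4 vehicle samples (replicates 1 to 4) and 3 metformin samples (replicates 1, 3 and 4). The metformin sample numbered 2 was not analysed here. All 7 came from male C57Bl/6 mice of 10 weeks, instilled through the trachea with PBS, the saline carrier. Treated mice took metformin with their drinking water (100 mg/kg/day) from 24 h before the instillation, and lungs were taken 24 h after it. The other 6 samples, 3 vehicle and 3 metformin, came from mice given 10 µg of urban particulate matter (PM) in the same carrier, and are used here only to set the response to metformin beside that in PBS animals. Alveolar macrophages were sorted from the lung by flow cytometry and their polyadenylated RNA was sequenced. The design describes the replicates as biological, and the comparison asks what metformin changed in the macrophage transcriptome in the absence of a pollutant.

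Metformin is a biguanide used to treat type 2 diabetes. In many cell types it is known to inhibit complex I of the mitochondrial respiratory chain and to raise the activity of the energy sensor AMPK. Alveolar macrophages are the resident phagocytes of the airspaces: they clear surfactant, particles and dead cells, and in the mouse they maintain their numbers largely by dividing locally.

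The samples of the comparison held between 5567481 and 6434350 counts. The share of counts from mitochondrially encoded genes was between 0.893% and 1.015%. Metformin replicate 1 stood apart from its own group: the chi-square per gene was 6.73 and 6.08 against the other two metformin samples, and between 2.29 and 4.50 among all other pairs of the same PBS group. Library numbers in the labels run from 21 to 24 in the vehicle samples and from 25 to 28 in the metformin samples, so library order and treatment cannot be told apart.

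The sorted cells carried the expression of alveolar macrophages. Siglecf, a lectin that marks these cells, was at 567, 568, 543 and 587 CPM (read counts scaled to each library's TMM-adjusted total) in the vehicle samples and at 600, 608 and 588.5 CPM in the metformin samples, a log2 difference of 0.08 (SE 0.05, adjusted p = 0.385). The summed level of 38 alveolar macrophage markers ran from 49670 to 54550 CPM with vehicle and from 47210 to 50580 CPM with metformin. Markers of other cells summed to less. The 22 markers of the monocyte lineage summed to between 1166 and 1221 CPM with vehicle and between 1130 and 1277 CPM with metformin. The 18 neutrophil markers summed to between 147.5 and 160.2 CPM with vehicle and between 136.6 and 152.2 CPM with metformin. Of these 18, 6 had 0 counts in all 7 samples, among them Ly6g, Mpo and Elane. Others were present: Wfdc21 had 1600 counts over the vehicle samples and 1229 over the metformin samples, and Csf3r had 707 and 621. Lymphocyte markers summed to at most 5.013 CPM with vehicle and 4.301 CPM with metformin, and Cd3e had 0 counts. Epithelial markers summed to between 442.9 and 489.5 CPM with vehicle and between 445.0 and 509.4 CPM with metformin. Among the marker lists of other cells, Mmp8 (1 of 7 tested neutrophil markers, log2 fold change -0.67, adjusted p = 0.00692) and Cdh1 (1 of 14 epithelial markers, -0.44, adjusted p = 0.0149) fell, and Apoe (1 of 13 tested markers of the monocyte lineage) rose. The call of Cdh1 was lost without metformin replicate 1 (adjusted p = 0.0694) and without some other samples. In bulk RNA, fewer cells of a type and less RNA per cell cannot be told apart.

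With metformin, genes of cell division were lower and chaperones of the heat shock response were higher. Of 11906 genes tested, 368 passed an adjusted p of 0.05 (edgeR's quasi-likelihood test with Benjamini-Hochberg adjustment, used for every adjusted p below), which is 3.09% of the genes tested. Of these, 131 rose with metformin (1.1% of the genes tested) and 237 fell (1.99%). At the median the falls were the larger changes. The median log2 fold change was -0.54 among the genes that fell and 0.36 among those that rose, against -0.0036 over all genes. By over 1.5-fold 112 genes fell and 21 rose, and by over 2-fold 17 fell and 12 rose. The 3 metformin samples lay entirely above or below the 4 vehicle samples in 341 of the 368 genes, and in 13.7% of all genes tested. Without metformin replicate 4 the count was 118, without vehicle replicate 1 it was 160 and without vehicle replicate 2 it was 190. The count of genes that rose went to 39, 52 and 62 in these fits and to 207 without vehicle replicate 3. The count of genes that fell went to 79, 108 and 128, to 150 without metformin replicate 1, to 146 without metformin replicate 3 and to 369 without vehicle replicate 4. Fitted on the 7 PBS samples alone, 76 genes rose and 110 fell.

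**Figure D1:**
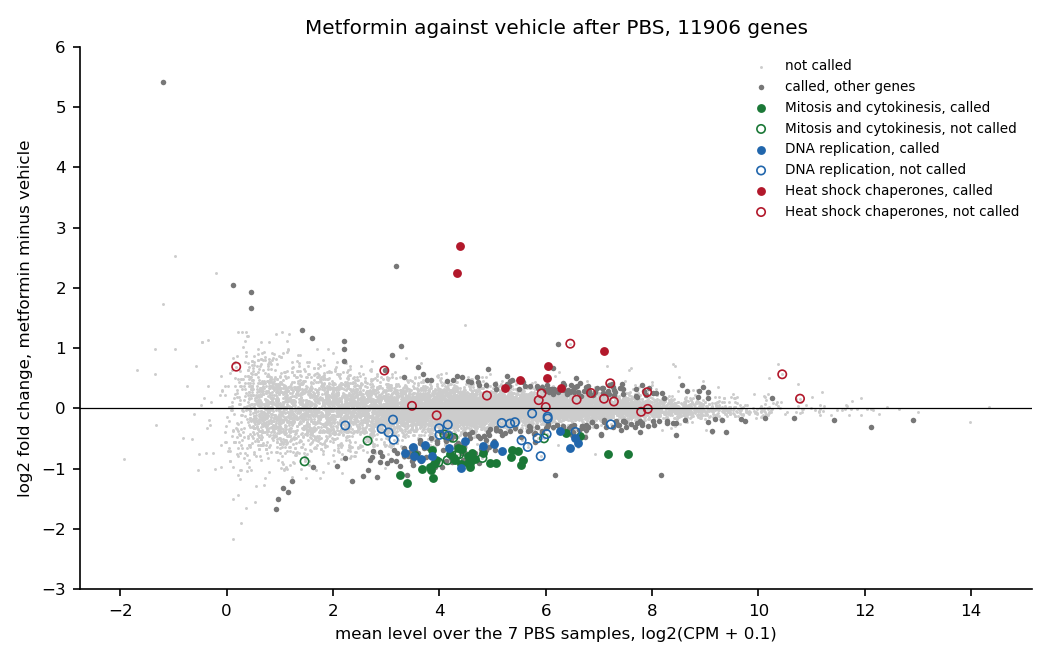
Log2 fold change of metformin over vehicle in PBS animals (y axis) against the mean level over the 7 PBS samples in log2(CPM + 0.1) (x axis) for the 11906 genes tested. Each point is a gene: light grey did not pass the test, dark grey passed, and colours mark the mitosis, DNA replication and heat shock lists (filled where the gene passed, open where it did not). The filled mitosis and replication points all lie below 0 and the filled heat shock points all above it; the highest point is Cyp26b1, which has few counts.

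Of the 237 genes that fell, 50 stand on the lists of mitosis and cytokinesis or of DNA replication used here. These lists hold 44 and 38 of the 11906 genes tested, and 1.99% of all genes tested fell. The lists were chosen with earlier results of these data known. Dividing cells switch on the genes of mitosis late in the cycle through a short promoter element, the cell cycle genes homology region (CHR), often next to CCAAT boxes, while E2F sites mark many genes of DNA replication. Heat shock genes are switched on by the factor HSF1 at inverted repeats of the heat shock element. Promoters of 5 genes that changed are shown because they hold these motifs: the paralogs Hspa1a and Hspa1b, the mitotic genes Cdc20 and Cdk1, and the replication gene Mcm6. Each sequence is the 250 bases before the RefSeq start (GRCm38.p6, minus strand for all 5 genes, read 5′ to 3′ along the gene), with motif matches in capitals: GAANNTTC in Hspa1a (chr17:34972157-34972406) and Hspa1b (chr17:34959239-34959488), TTTGAA and CCAAT (or its complement ATTGG) in Cdc20 (chr4:118437344-118437593) and Cdk1 (chr10:69352913-69353162), and TTTGGCGC in Mcm6 (chr1:128359706-128359955).
Hspa1a: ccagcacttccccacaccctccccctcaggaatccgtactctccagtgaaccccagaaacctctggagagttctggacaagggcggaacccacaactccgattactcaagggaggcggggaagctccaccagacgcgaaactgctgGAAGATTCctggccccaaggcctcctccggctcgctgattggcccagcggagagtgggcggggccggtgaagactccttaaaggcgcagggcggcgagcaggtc
Hspa1b: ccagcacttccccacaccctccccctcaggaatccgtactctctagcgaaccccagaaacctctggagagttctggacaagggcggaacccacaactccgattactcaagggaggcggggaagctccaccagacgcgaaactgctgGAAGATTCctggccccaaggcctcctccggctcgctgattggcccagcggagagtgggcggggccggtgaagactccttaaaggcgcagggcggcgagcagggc
Cdc20: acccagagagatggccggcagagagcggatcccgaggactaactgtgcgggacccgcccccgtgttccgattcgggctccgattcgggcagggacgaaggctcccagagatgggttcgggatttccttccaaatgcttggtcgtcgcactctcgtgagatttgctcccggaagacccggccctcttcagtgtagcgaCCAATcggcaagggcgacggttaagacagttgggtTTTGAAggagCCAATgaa
Cdk1: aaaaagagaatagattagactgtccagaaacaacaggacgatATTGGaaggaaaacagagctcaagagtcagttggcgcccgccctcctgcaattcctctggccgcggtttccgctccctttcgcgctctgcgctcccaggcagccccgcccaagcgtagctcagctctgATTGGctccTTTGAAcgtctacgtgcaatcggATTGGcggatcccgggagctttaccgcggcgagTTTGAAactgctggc
Mcm6: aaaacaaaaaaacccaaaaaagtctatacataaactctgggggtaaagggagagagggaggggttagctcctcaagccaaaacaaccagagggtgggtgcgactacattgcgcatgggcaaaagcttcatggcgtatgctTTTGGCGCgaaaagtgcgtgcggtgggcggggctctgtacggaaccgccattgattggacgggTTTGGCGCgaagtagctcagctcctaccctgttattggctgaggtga

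The heat shock match began at position -104 in both paralogs, where -1 is the base before the start. The CHR match began at -18 in Cdc20 and at -71 and -15 in Cdk1. The E2F matches of Mcm6 began at -110 and -47. Promoter windows from 250 bases before to 50 after the start were matched for 9024 of the tested genes and searched on both strands. A CHR (TTTGAA or TTCGAA) was in 25 of the 29 windows of mitosis genes that fell (86.2%), in 78.9% of the 38 windows of all tested mitosis genes, in 33.9% of the 192 windows of genes that fell, in 7.55% of the 106 windows of genes that rose and in 14.1% of all windows. In 22 of those 25 mitosis genes a match began at -100 or later. The CCAAT box was in 69.0% of the 29 windows of mitosis genes that fell, in 55.2% of the windows of all genes that fell, in 40.6% of those of genes that rose and in 39.3% of all windows. The letters GAANNTTC were in 5 of 8 windows (62.5%) of heat shock genes that rose, in 39.1% of the 23 windows of all tested heat shock genes, in 7.55% of the windows of all genes that rose and in 5.62% of all windows. An E2F motif (TTTCCCGC or TTTGGCGC) was in 5 of 13 windows (38.5%) of replication genes that fell, in 31.2% of the 32 windows of all tested replication genes, in 8.85% of the windows of all genes that fell and in 3.32% of all windows. The CHR and the E2F motif were added to the search after the fall of these lists had been seen. A match describes the letters in the window.

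Genes that build the spindle and split the cell fell together. All 44 tested genes of the mitosis and cytokinesis list had a negative fold change, 34 of them fell, none rose, and the median log2 fold change was -0.82. The share of all genes tested that fell was 1.99%. In 40 of the 44, every metformin sample was below every vehicle sample, as in 7.54% of all genes tested. List levels are deviations of edgeR's log2 CPM (prior count 2) from each gene's mean over the 4 vehicle PBS samples, averaged over the list. The mean level of the mitosis list was 0.42, 0.05, -0.09 and -0.37 in vehicle replicates 1 to 4 and -0.72, -0.78 and -0.77 in metformin replicates 1, 3 and 4. The vehicle samples spread far more than the metformin samples, and the groups did not overlap.

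Kif14, a kinesin needed for cytokinesis (chromosome 1, 136466343 to 136531511, mm10), was at 19.3, 13.004, 12.9 and 10.0 CPM in the vehicle samples and at 6.22, 6.37 and 5.08 CPM in the metformin samples. Every metformin sample was below every vehicle sample, and the log2 fold change was -1.24 (SE 0.19, adjusted p = 0.0017). Ect2, the exchange factor that sets the cleavage furrow (chromosome 3, 27097222 to 27153878), was at 28.8, 27.4, 35.7 and 28.2 CPM with vehicle and at 14.4, 14.97 and 16.6 CPM with metformin. It fell by 0.97 on the log2 scale (SE 0.14, adjusted p = 0.0013), with vehicle replicate 3 the highest of the 7. Plk1, the polo-like kinase that drives entry into mitosis, was at 24.2, 17.4, 16.3 and 13.4 CPM with vehicle and at 8.35, 10.4 and 8.63 CPM with metformin. Its log2 fold change was -0.97 (adjusted p = 0.0032), again without overlap. Cep55, which recruits the machinery of the last cut between daughter cells, had 24.2, 22.7, 13.2 and 16.1 CPM with vehicle and 10.3, 7.65 and 7.70 CPM with metformin (log2 fold change -1.16, adjusted p = 0.00416). Ckap2, a spindle protein, fell by 1.098 on the log2 scale (adjusted p = 0.00208), and Bub1b, a kinase of the spindle checkpoint, fell by 0.46 (adjusted p = 0.00416).

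Cdk1, the kinase at the centre of mitotic entry, was at 41.6, 34.8, 28.2 and 20.9 CPM with vehicle and at 17.2, 18.2 and 17.3 CPM with metformin. The metformin samples lay close together and the vehicle samples spread widely, with replicate 4 nearest to the treated samples. The log2 fold change was -0.85 (SE 0.18, adjusted p = 0.0194). Cdc20, the activator of the anaphase-promoting complex, was at 28.01, 17.2, 15.5 and 14.7 CPM with vehicle and at 12.9, 8.44 and 10.2 CPM with metformin (log2 fold change -0.85, SE 0.22, adjusted p = 0.0441). Mki67, the Ki-67 antigen used to stain cycling cells, was at 293, 223, 215 and 172 CPM with vehicle and at 126, 133 and 141 CPM with metformin (log2 fold change -0.76, SE 0.16, adjusted p = 0.0306). Top2a, the topoisomerase of mitotic chromosomes, had a log2 fold change of -0.75 (adjusted p = 0.0356) and Ccnb1, cyclin B1, one of -0.89 (adjusted p = 0.0525). These 5 genes, like Plk1, Bub1b and Dlgap5 among the mitosis genes named, were chosen after their values were seen. Ccnb1 did not pass the test.

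The calls of Kif14, Ect2, Plk1, Cep55, Ckap2 and Bub1b held when each of the 7 samples was left out in turn. The calls of Cdk1, Cdc20 and Top2a were lost without metformin replicate 4 (adjusted p = 0.107, 0.171 and 0.113) and that of Mki67 without metformin replicate 1 (adjusted p = 0.102), and each was also lost without some other samples. The count of 34 mitosis genes went to 18 without metformin replicate 4 and to 20 without metformin replicate 3, and to 17 in a fit of the 7 PBS samples alone. The list's median stayed between -0.93 and -0.62 under every alternative run.

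**Figure D2:**
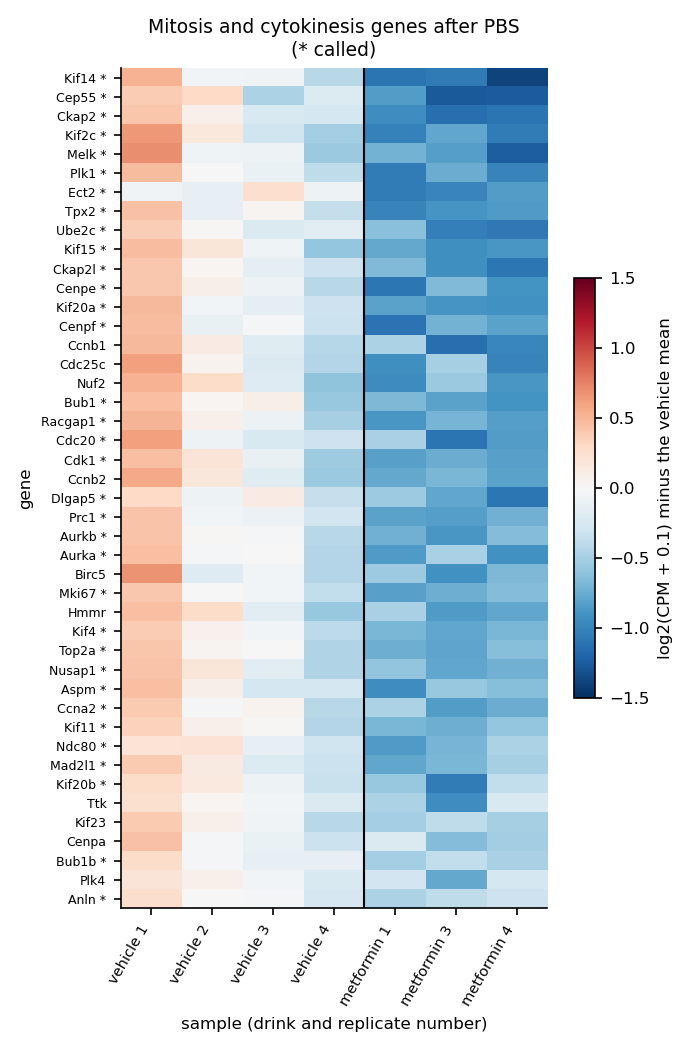
Deviation of log2(CPM + 0.1) from the mean of the 4 vehicle samples (colour) for the 44 tested genes of the mitosis and cytokinesis list (rows) in the 4 vehicle and 3 metformin samples (columns). Asterisks mark the 34 genes that fell; metformin columns are below the vehicle mean, and vehicle replicate 1 is above it in most genes.

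Genes of DNA replication were lower too, by less. All 38 tested genes of the list had a negative fold change, 16 fell (beside 1.99% of all genes tested), none rose, and the median log2 fold change was -0.50. In 17 of the 38, every metformin sample was below every vehicle sample (7.54% of all genes tested). The mean level of the list was 0.26, 0.01, 0.05 and -0.32 in the vehicle samples and -0.43, -0.49 and -0.46 in the metformin samples.

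Clspn, claspin, which relays the replication checkpoint (chromosome 4, 126556935 to 126593903), was at 34.2, 28.4, 26.2 and 19.1 CPM with vehicle and at 13.9, 14.2 and 12.8 CPM with metformin. It fell by 0.99 on the log2 scale (SE 0.15, adjusted p = 0.00164), with all 3 metformin samples below the lowest vehicle sample. Rfc3, a subunit of the loader of the sliding clamp, was at 16.8, 16.6, 13.9 and 14.3 CPM with vehicle and at 9.82, 7.01 and 8.93 CPM with metformin (log2 fold change -0.84, SE 0.14, adjusted p = 0.00294). Among the subunits of the replicative helicase, Mcm7 was at 122, 109, 110 and 86.6 CPM with vehicle and at 81.0, 72.2 and 74.6 CPM with metformin (log2 fold change -0.50, adjusted p = 0.00492). Mcm4 fell by 0.38 (adjusted p = 0.00696). Mcm6, whose promoter is shown above, was at 128, 118, 123 and 84.0 CPM with vehicle and at 74.6, 72.2 and 80.7 CPM with metformin (log2 fold change -0.58, adjusted p = 0.0293); its vehicle replicate 4 lay near the metformin samples. Pola1, the catalytic subunit of the polymerase that lays down primers, fell by 0.60 (adjusted p = 0.00851). Rrm1 and Tk1, which supply nucleotides, fell by 0.66 and 0.70 (adjusted p = 0.0251 and 0.0292), and Cdc6, which loads the helicase at origins, fell by 0.64 (adjusted p = 0.0217).

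The calls of Clspn, Rfc3, Mcm4, Mcm7 and Pola1 held when each sample was left out in turn. The call of Mcm6 was lost without metformin replicate 1 (adjusted p = 0.108), those of Rrm1 and Tk1 without metformin replicate 4 (adjusted p = 0.107 and 0.131) and that of Cdc6 without vehicle replicate 1 (adjusted p = 0.0942), among others. The count of 16 replication genes ranged from 5, without metformin replicate 4, to 27, without vehicle replicate 4. It was 6 without metformin replicate 1, 8 without vehicle replicate 1, 9 without metformin replicate 3 and 10 without vehicle replicate 2. Mcm6, Pola1, Rrm1, Tk1 and Cdc6 were named after their values were seen.

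**Figure D3:**
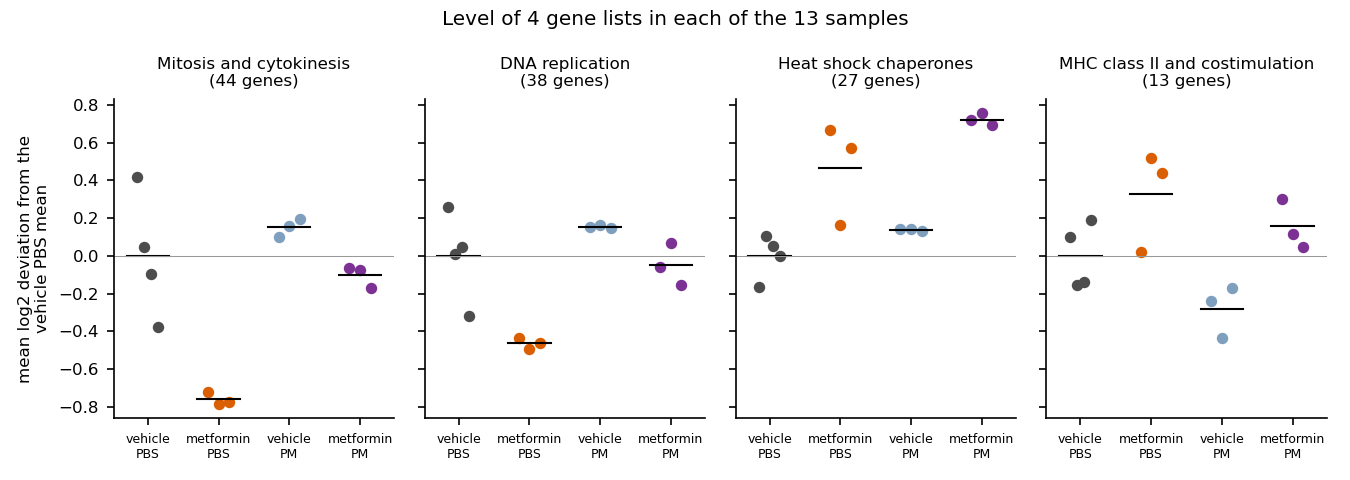
Mean deviation of edgeR's log2 CPM (prior count 2) from the vehicle PBS mean for 4 gene lists (y axes) in each of the 13 samples (x axis, by treatment and instillate). Points are samples and horizontal lines are group means. With PBS, mitosis and replication lists are lower in all 3 metformin samples than in all 4 vehicle samples, and the heat shock list is higher.

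Heat shock chaperones were higher with metformin, unevenly across the 3 animals. Of 27 tested genes of the list, 8 rose (beside 1.1% of all genes tested), none fell, 24 had a positive fold change and the median log2 fold change was 0.27. The mean level of the list was -0.16, 0.11, 0.05 and 0.00 in vehicle replicates 1 to 4 and 0.67, 0.16 and 0.57 in metformin replicates 1, 3 and 4. Metformin replicate 3 was thus the lowest of its group, only slightly above the highest vehicle sample.

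Hspa1a and Hspa1b encode the inducible HSP70 chaperone. Hspa1a (chromosome 17, 34969190 to 34972156) was at 3.96, 8.93, 8.93 and 9.11 CPM with vehicle and at 44.7, 15.3 and 49.4 CPM with metformin. Hspa1b was at 2.22, 9.40, 5.90 and 7.33 CPM with vehicle and at 50.3, 14.7 and 56.2 CPM with metformin. In both genes metformin replicate 3 lay nearest to the vehicle range and the other treated samples were far above it. The log2 fold changes were 2.24 (SE 0.43, adjusted p = 0.026) and 2.70 (SE 0.53, adjusted p = 0.0292). The paralogs are near-identical and Hspa1a overlaps a predicted gene, so how reads were shared between them is uncertain.

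Dnaja1 and Dnajb1 are J-domain partners that hand clients to HSP70. Dnaja1 was at 71.9, 111, 112 and 92.7 CPM with vehicle and at 223, 134 and 208 CPM with metformin (log2 fold change 0.96, SE 0.19, adjusted p = 0.0322). The gene overlaps Smu1 in the annotation, so its reads are uncertain unless strand was used in counting. Dnajb1 was at 46.4, 60.8, 55.5 and 58.1 CPM with vehicle and at 81.0, 68.2 and 85.3 CPM with metformin (log2 fold change 0.50, SE 0.09, adjusted p = 0.00523). Chordc1, a co-chaperone of HSP90, was at 43.7, 56.7, 56.8 and 49.5 CPM with vehicle and at 95.9, 64.0 and 92.7 CPM with metformin (log2 fold change 0.70, SE 0.13, adjusted p = 0.00993). Bag3, a nucleotide exchange factor of HSP70 that feeds selective autophagy, rose by 0.47 on the log2 scale (adjusted p = 0.00665). In all of these genes metformin replicate 3 was the lowest of the treated samples and still above every vehicle sample. Cacybp and Ahsa2 rose by 0.33 and 0.34 (adjusted p = 0.0224 and 0.0295).

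Hsph1, the HSP110 chaperone, was at 43.7, 63.3, 73.2 and 58.8 CPM with vehicle and at 159, 73.6 and 145 CPM with metformin, and did not pass the test (log2 fold change 1.07, SE 0.26, adjusted p = 0.0585). Hspa8, the constitutive HSP70, and Hsp90aa1 had log2 fold changes of 0.57 and 0.27 and also did not pass (adjusted p = 0.153 and 0.216). Hsph1, Hspa8, Hsp90aa1 and Ahsa2 were named after their values were seen. The call of Dnajb1 held when each sample was left out. Those of Hspa1a, Hspa1b, Dnaja1, Bag3, Chordc1, Cacybp and Ahsa2 were lost without metformin replicate 4 (adjusted p = 0.107, 0.117, 0.128, 0.0553, 0.0553, 0.128 and 0.128). Except for Bag3 and Chordc1, each was also lost without some other samples. Without metformin replicate 3 the count of heat shock genes that rose went from 8 to 14. It went to 1 without metformin replicate 4, to 3 without metformin replicate 1 or vehicle replicate 1, to 4 without vehicle replicate 2 and to 2 in the 7 PBS samples alone.

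**Figure D4:**
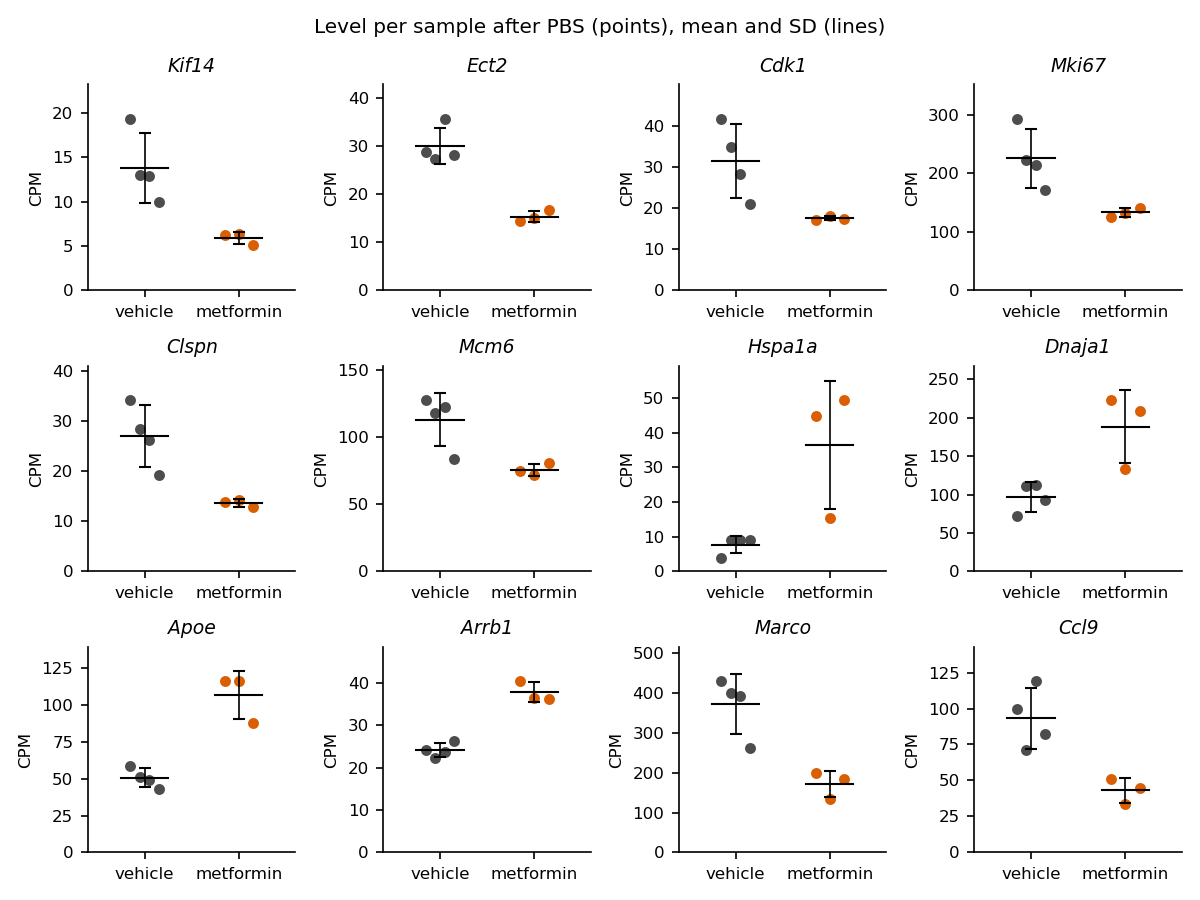
Level of 12 genes (CPM, linear y axes starting at 0) in each of the 4 vehicle and 3 metformin PBS samples; points are samples and lines show the mean and SD of each group. Metformin replicate 3 is the lowest treated sample in Hspa1a and Dnaja1, and the groups do not overlap in the 12 genes.

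Among the other genes that rose, Apoe had one of the largest changes. Apoe, an apolipoprotein that macrophages secrete to carry cholesterol (chromosome 7, 19696109 to 19699166), was at 58.9, 51.2, 49.3 and 43.4 CPM with vehicle and at 116, 117 and 88.0 CPM with metformin. It rose by 1.07 on the log2 scale (SE 0.16, adjusted p = 0.00692), and it was 1 of 11 tested LXR targets to pass the test. Apoe also marks monocyte-derived macrophages, whose 22 markers summed to between 1166 and 1221 CPM with vehicle and between 1130 and 1277 CPM with metformin; the part of such cells in the rise was not tested. Insig1, which retains the SREBP complex in the endoplasmic reticulum, and Mvd, an enzyme of the mevalonate pathway, rose by 0.38 and 0.32 (adjusted p = 0.0078 and 0.0113). Of 25 tested genes of cholesterol synthesis and uptake, 3 rose and none fell, 20 had a positive fold change and the median was 0.20. The share of all genes tested that rose was 1.1%.

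Arrb1, the scaffold β-arrestin 1, was at 24.2, 22.3, 23.6 and 26.3 CPM with vehicle and at 40.4, 36.5 and 36.2 CPM with metformin (log2 fold change 0.65, SE 0.11, adjusted p = 0.00215). Tgfb2, a TGF-β ligand, was at 5.54, 4.86, 7.49 and 8.75 CPM with vehicle and at 14.1, 13.7 and 12.8 CPM with metformin (log2 fold change 1.03, SE 0.23, adjusted p = 0.0174). The groups were well apart in both genes. Foxo3, a forkhead factor of stress and fasting, rose by 0.39 (adjusted p = 0.00665) and was the single gene to pass among 26 tested genes of AMPK and mTORC1 signalling. Stat2, which carries the type I interferon signal, rose by 0.47 (adjusted p = 0.00414), the single gene among 21 tested interferon-stimulated genes. Of the clock genes, Nr1d2, Bhlhe40 and Csnk1e rose by 0.54, 0.30 and 0.22 (adjusted p = 0.0159, 0.0186 and 0.0378), 3 of 18 tested. These list counts stand beside a share of 1.1% of all genes tested that rose. So few calls on short lists are not read as a result about a list. The calls of Apoe, Mvd, Arrb1, Foxo3 and Stat2 held when each sample was left out. Those of Insig1 and Nr1d2 were lost without metformin replicate 4 (adjusted p = 0.0634 and 0.118), that of Bhlhe40 without metformin replicate 3 (0.0823), and those of Tgfb2 and Csnk1e without vehicle replicate 1 (0.0707 and 0.147), among others.

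Receptors of the macrophage surface moved in both directions. Marco, a scavenger receptor for particles and bacteria (chromosome 1, 120474538 to 120505024), was at 431, 401, 393 and 261 CPM with vehicle and at 198, 135 and 183 CPM with metformin. All metformin samples were below vehicle replicate 4, the lowest of its group, and the log2 fold change was -1.11 (SE 0.23, adjusted p = 0.0385). Cd36, which takes up oxidised lipids, fell by 0.37 (adjusted p = 0.0283). Mertk, the receptor for the engulfment of dead cells, was at 450, 488, 492 and 526 CPM with vehicle and at 551, 587 and 640 CPM with metformin (log2 fold change 0.28, SE 0.05, adjusted p = 0.00668). The Fc receptors Fcgr1 and Fcgr2b, which bind antibody-coated particles, rose by 0.32 and 0.34 (adjusted p = 0.0219 and 0.0198). Of 23 tested scavenger and phagocytic receptors, 3 rose and 2 fell, beside 1.1% and 1.99% of all genes tested.

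Lpl, the lipase that alveolar macrophages express strongly, was at 5230, 4682, 4251 and 5085 CPM with vehicle and at 3706, 4073 and 3839 CPM with metformin (log2 fold change -0.31, SE 0.06, adjusted p = 0.00547). Serpinb1a, an inhibitor of neutrophil elastase, fell by 0.39 (adjusted p = 0.0159). Together with Marco these were the 3 of 38 tested alveolar macrophage markers that fell, beside 1.99% of all genes tested. Bhlhe40 rose, and the median of the list was -0.002. Leaving out metformin replicate 4 ended the calls of Marco, Cd36, Mertk, Fcgr1, Fcgr2b and Serpinb1a (adjusted p = 0.126, 0.13, 0.076, 0.126, 0.082 and 0.0971). Except for Mertk, each of these calls was also lost without some other samples. The call of Lpl held when each sample was left out.

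Il6 and Tnf, cytokines of acute inflammation, varied more between animals of a treatment than between treatments. Il6 was at 15.8, 10.2, 27.1 and 8.40 CPM with vehicle and at 28.2, 13.5 and 12.3 CPM with metformin, with full overlap (log2 fold change 0.21, adjusted p = 0.871). Tnf was at 356, 224, 499 and 197 CPM with vehicle and at 407, 206 and 139 CPM with metformin (log2 fold change -0.35, adjusted p = 0.743). In each gene the range within a treatment was wider than the gap between the group means. Il1b had a log2 fold change of 0.18 (adjusted p = 0.785). Without metformin replicate 1 the log2 fold changes of Il6 and Il1b were -0.26 and -0.20. Of 24 tested cytokines and chemokines, 2 fell and none rose, beside 1.99% and 1.1% of all genes tested, and the median was -0.16. Ccl9, a chemokine for monocytes and dendritic cells (chromosome 11, 83572919 to 83578636), was at 99.7, 71.4, 119 and 82.2 CPM with vehicle and at 51.1, 33.6 and 44.8 CPM with metformin, without overlap (log2 fold change -1.11, SE 0.21, adjusted p = 0.0253). Its call was lost without metformin replicate 4 (adjusted p = 0.0977) and without some other samples. Il1rn, the antagonist of the interleukin-1 receptor, was at 273, 260, 263 and 263 CPM with vehicle and at 210, 232 and 206 CPM with metformin (log2 fold change -0.29, SE 0.05, adjusted p = 0.00437), and its call held in every fit that left out a sample. The list of MHC class II and costimulatory genes had a median log2 fold change of 0.26 over 13 tested. Of these 2 rose, beside 1.1% of all genes tested: H2-DMa, which loads peptides onto class II molecules, by 0.18 and Cd274, the coinhibitory ligand PD-L1, by 0.26 (adjusted p = 0.036 and 0.0366). Without metformin replicate 4 the adjusted p was 0.128 for each, the call of H2-DMa held in the single fit without vehicle replicate 4 and was lost under upper-quartile scaling (adjusted p = 0.053), and that of Cd274 held in the fits without vehicle replicate 3 or 4. The mean level of that list was 0.10, -0.15, -0.14 and 0.19 with vehicle and 0.02, 0.52 and 0.44 with metformin, so metformin replicate 1 lay within the vehicle range.

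Genes close to the known actions of metformin were examined at the RNA level. Over all genes tested 3.09% passed, so a short list with no call lies close to that share. Of 36 tested nuclear genes for complex I subunits none passed the test, and the median log2 fold change was -0.003 against -0.0036 over all genes. None of 40 genes of complexes II to V passed either (median -0.022). Of 12 mitochondrially encoded genes 2 fell, mt-Nd4 by 0.19 and mt-Cytb by 0.16 (adjusted p = 0.0305 and 0.0319), while 1.99% of all genes fell. In this list 11 genes had a negative fold change and the median was -0.099. Every metformin sample was below every vehicle sample in 4 of the 12, and in 7.54% of all genes. When each sample was left out in turn, the call of mt-Nd4 was lost in 4 fits and that of mt-Cytb in 6. The highest adjusted p was 0.166 for mt-Nd4, without metformin replicate 1, and 0.104 for mt-Cytb, without vehicle replicate 1. Prkaa1, a catalytic subunit of AMPK, had a log2 fold change of -0.01 (adjusted p = 0.941). Of 23 tested glycolysis genes none passed the test (median -0.057). At an unadjusted p under 0.05 there were 1 gene of complex I, 0 of complexes II to V and 9 of glycolysis, beside 2088 of all 11906 genes. DESeq2 and limma-voom called 0 genes in each of these 3 lists. RNA levels say nothing of the activity of these enzymes.

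In the integrated stress response, which slows translation and induces amino acid supply, the few genes that passed the test moved in opposite directions. Ddit3, the factor CHOP, was at 5.54, 5.48, 8.29 and 5.72 CPM with vehicle and at 12.4, 9.08 and 13.1 CPM with metformin (log2 fold change 0.88, adjusted p = 0.00657). Mthfd2, a mitochondrial enzyme of folate metabolism, was at 28.8, 28.98, 32.7 and 29.1 CPM with vehicle and at 22.3, 20.2 and 22.5 CPM with metformin (log2 fold change -0.47, SE 0.09, adjusted p = 0.00668). Psat1, of serine synthesis, and Slc7a1, a carrier of cationic amino acids, fell by 0.57 and 0.44 (adjusted p = 0.014 and 0.0227). In all, 1 of 31 tested members rose and 3 fell, beside 1.1% and 1.99% of all genes tested. The list had 10 positive and 21 negative fold changes and a median of -0.078. Eif2ak3, the stress kinase PERK, rose by 0.32 (adjusted p = 0.0106), 1 of 27 tested genes of endoplasmic reticulum stress. So few calls are not read as a result about either list. Slc7a11, the cystine carrier, was at 12.03, 16.9, 7.17 and 16.8 CPM with vehicle and at 34.5, 28.99 and 39.4 CPM with metformin, without overlap. It did not pass the test (log2 fold change 1.38, SE 0.33, adjusted p = 0.0546). The call of Mthfd2 held when each sample was left out. Those of Ddit3, Psat1 and Eif2ak3 were lost without metformin replicate 4 (adjusted p = 0.0556, 0.076 and 0.0823) and that of Slc7a1 without metformin replicate 1 (0.115). Those of Psat1 and Slc7a1 were also lost without some other samples.

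In mice instilled with PM, 808 genes passed the test for metformin against vehicle, 6.79% of those tested, with 472 higher (3.96%) and 336 lower (2.82%). This contrast shares no sample with the PBS contrast. Without vehicle PM replicate 2 the count was 423, without metformin PM replicate 1 it was 448 and without vehicle PM replicate 3 it was 538. In these fits 251, 271 and 336 genes were higher and 172, 177 and 202 lower. Of the 131 genes that rose with PBS, 43 also rose with PM, which is 32.8% of the first list and 9.11% of the second. Of the 237 that fell with PBS, 34 also fell with PM, 14.3% of the first list and 10.1% of the second, and 4 rose. The difference between the effects of metformin in PM and PBS animals, tested directly, passed in 186 genes (1.56%). Of the 368 genes called with PBS, 33 were among them. Without metformin PBS replicate 4 this count of 186 was 106, without metformin PBS replicate 3 it was 113, without metformin PM replicate 1 it was 121, without vehicle PBS replicate 2 it was 122 and without vehicle PBS replicate 4 it was 282. None of 24 tested endothelial and stromal markers passed the PBS contrast by edgeR, DESeq2 or limma-voom (4 at an unadjusted p under 0.05, median log2 fold change -0.20), where they summed to between 223.7 and 266.7 CPM with vehicle and between 217.6 and 229.7 CPM with metformin. In the PM contrast 6 of them were higher (median 0.96), and the part of such RNA in the counts for PM was not tested.

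Heat shock genes were higher with either instillate. With PM the median log2 fold change of the list was 0.47, 13 of 27 genes rose, the 8 called with PBS were all among them, and none of the 27 passed the test of the difference. The mean level of the list was 0.14, 0.14 and 0.13 in the PM vehicle samples and 0.72, 0.76 and 0.69 in the PM metformin samples, with each treated PM sample above all 3 treated PBS samples. Hspa1a rose by 1.79 on the log2 scale (adjusted p = 0.0396) and Dnaja1 by 1.15 (adjusted p = 0.00983) in PM animals. Ddit3 rose by 0.81 (adjusted p = 0.00356) there, and Lpl fell by 0.34 (adjusted p = 0.00162).

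The mitosis list differed less with PM. There its median log2 fold change was -0.25, 41 of 44 genes were negative and 2 fell, and the mean levels were 0.10, 0.16 and 0.20 with vehicle and -0.06, -0.07 and -0.17 with metformin. The replication list had a median of -0.19 with 4 genes lower. Kif14, Ect2 and Dlgap5, a spindle protein, passed the test of the difference (adjusted p = 0.0386, 0.00492 and 0.0245), as did Pola1 of the replication list (adjusted p = 0.0387). Ect2 was at 34.6, 30.2 and 29.1 CPM in the PM vehicle samples and at 34.9, 38.0 and 25.2 CPM in the PM metformin samples, and the groups overlapped. The other 41 mitosis genes and 37 replication genes did not pass that test, so for them no difference between instillates was shown.

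**Figure D5:**
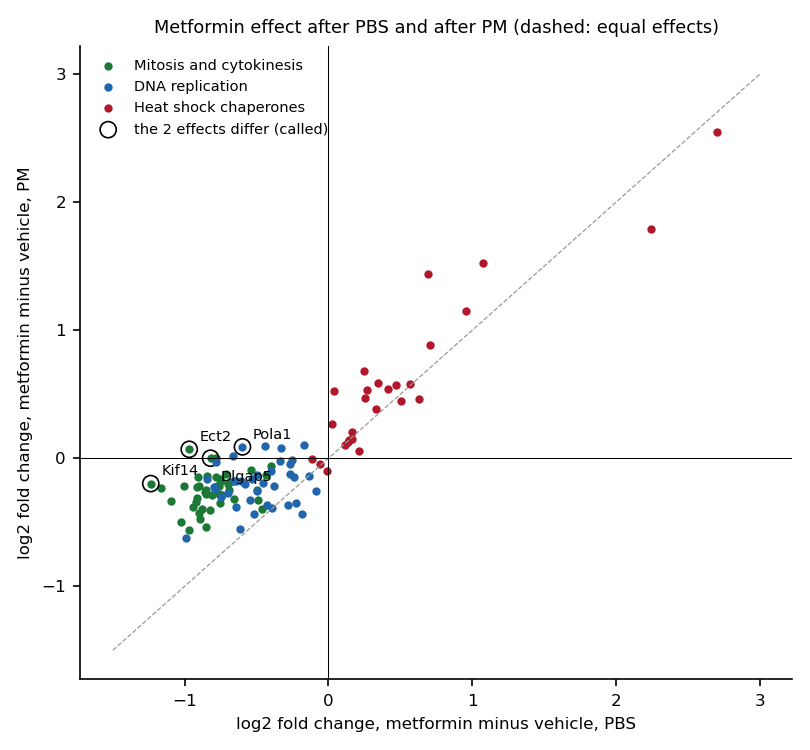
Log2 fold change of metformin over vehicle with PM (y axis) against that with PBS (x axis) for genes of the mitosis, DNA replication and heat shock lists; each point is a gene and the diagonal marks equal effects. The 4 ringed genes (Kif14, Ect2, Dlgap5, Pola1) passed the test of the difference, and most mitosis genes lie between the diagonal and 0.

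Several single genes responded differently to metformin with each instillate. Ndrg1, a gene induced by hypoxia, was at 9.65, 8.62, 9.25 and 8.58 CPM with vehicle and PBS and at 5.73, 5.57 and 3.39 CPM with metformin and PBS (log2 fold change -0.89, adjusted p = 0.0237). With PM it rose by 1.18 (adjusted p = 0.00104), and the difference passed (adjusted p = 0.000795). Tfrc, the transferrin receptor, rose by 0.47 with PBS (adjusted p = 0.0404) and fell by 0.58 with PM (adjusted p = 0.00424; difference, adjusted p = 0.00223). Both genes were thus called in opposite directions. Arrb1 had a log2 fold change of -0.17 with PM and Ccl9 one of 0.52, neither passing the test (adjusted p = 0.408 and 0.137), while their differences from the PBS effect passed (adjusted p = 0.00505 and 0.0231). Tsc22d3, a glucocorticoid-induced leucine zipper, fell by 0.44 with PBS (adjusted p = 0.00686) and had a log2 fold change of 0.17 with PM (difference, adjusted p = 0.011). Apoe had a log2 fold change of 0.01 with PM, and its difference did not pass (adjusted p = 0.0703). Without metformin PBS replicate 4 the PBS calls of Ndrg1 and Tsc22d3 were lost (adjusted p = 0.168 and 0.0556), and that of Tfrc was lost without metformin PBS replicate 3 (adjusted p = 0.172). The PBS calls of Ndrg1 and Tfrc were also lost without some other samples.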

How the data were processed

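RNA of sorted alveolar macrophages was sequenced in 13 samples, called biological replicates in the design text. Raw read counts per gene were deposited by the authors in 1 table of 43430 genes, together with gene coordinates and lengths (other columns of the deposited table, lengths not used). Reads were demultiplexed with bcl2fastq 2.19, aligned to mm10 with TopHat2 and counted with HTSeq, per the submitters' processing notes, which also name edgeR; the annotation release and the strand setting are not given in the sources used here. Reads of overlapping genes are therefore uncertain: of the genes named, Ahsa2, Bhlhe40, Ccnd2, Cdc20, Csnk1e, Ddit3, Dnaja1, E2f7, E2f8, Fancd2, Fcgr2b, Hspa1a, Il1b, Lcp1, Mcm7, Mertk, mt-Nd4, Ndrg1, Parpbp, Prkaa1, Slc7a11, Tgfb2 and Tk1 overlap another gene that has at least 10 counts in all.

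Gene symbols were found for 42462 of the 43430 identifiers. Genes were filtered with filterByExpr over the 4 groups, scaled with TMM and tested with edgeR 4.0.16 in R 4.3.3 (glmQLFit with robust = TRUE, glmQLFTest) in 1 fit of all 13 samples. Benjamini-Hochberg adjustment ran over all 11906 genes, with a call at an adjusted p under 0.05. Residual degrees of freedom were 9 and the common biological coefficient of variation was 0.0635. A level of 5 CPM stands for few reads at these depths, which limits the precision of low genes. Gene lists (42 in all, 1146 of 1148 names matched) are described by counts and medians, with no test of a list. Genes named are the 15 largest rises and falls whose groups did not overlap and whose higher group averaged 5 CPM or more, the 10 largest differences between instillates, up to 4 members of each list by adjusted p, a panel, and genes stated as chosen after their values were seen. Of the 10 largest differences, those led by the PM contrast are not described. The comparison and the lists were chosen with earlier results of these data known. Alternatives were DESeq2 1.42.0, limma-voom (limma 3.58.1), other scalings and filters, fewer samples, a replicate block and leaving out each sample. Promoters are RefSeq windows on GRCm38.p6. Results of some list members are not reported here.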

Additional observations from a re-analysis of the deposited data

Results flagged for a closer look

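Among the 4 vehicle PBS samples, 9 of 113 levels examined had a sample far from the others, by the ratio of its gap to the nearest sample over the group's range (Dixon's test); chance gives about 1 in 20 groups. Vehicle replicate 1 had the lowest Hspa1a (3.96 CPM, others 8.93 to 9.11, ratio 0.964) and the highest Hells (28.01 CPM, others 17.7 to 18.8, ratio 0.893). Vehicle replicate 3 had the highest Ect2 (35.7 CPM, others 27.4 to 28.8, ratio 0.833), Ddit3 (8.29 CPM, others 5.48 to 5.72, ratio 0.917) and Mthfd2 (32.7 CPM, others 28.8 to 29.1, ratio 0.919), and the lowest Slc7a1 (34.8 CPM, others 42.1 to 43.2, ratio 0.866). Vehicle replicate 4 had the lowest Hsp90aa1 (204 CPM, others 225 to 227, ratio 0.944), Cd36 (554.0 CPM, others 636 to 649, ratio 0.861) and mt-Nd4 (640 CPM, others 676 to 681, ratio 0.894).

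The effect of metformin differed between instillates in 14 of 109 genes examined, by the interaction contrast of edgeR's quasi-likelihood test. Over all genes tested the share was 1.56%. Of the 109 genes 99 were called with PBS, and some were named for a large difference, so the 2 shares cannot be compared. The difference subtracts the same PBS effect, so a sign opposite to the PBS change is expected from this choice of genes. As log2 effect in PM animals minus that in PBS animals, the difference was positive for genes of division, which had fallen with PBS: 1.04 for Kif14, 1.04 for Ect2, 0.82 for Dlgap5, 0.69 for Pola1 and 1.15 for Depdc1a. It was also positive for Ccl9 (1.64), Ndrg1 (2.07) and Tsc22d3 (0.61). It was negative for Arrb1 (-0.82), Bhlhe40 (-0.42), Fcgr1 (-0.47), Tfrc (-1.05), Cd274 (-0.43) and Irf8 (-0.35), which had risen with PBS. Irf8 was chosen after its values were seen.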

How the results depend on the processing

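No named gene that passed the test changed sign under the alternatives run. Of the genes described in the text that did not pass, 3 changed sign. Il6 (0.21) and Il1b (0.18) had log2 fold changes of -0.26 and -0.20 without metformin replicate 1, and Prkaa1 ranged from -0.05 to 0.03. Other named genes that did not pass also changed sign, among them Arntl, Crem, Cxcl2 and Dbp. Without a filter on low counts, 743 genes passed in PBS animals (350 higher, 393 lower), 543 were lower with PM, 440 differed between instillates (240 and 200 in each direction) and 13 heat shock genes rose. With only the groups compared in the fit, the PBS counts were 186, 76 and 110, with 17 mitosis, 9 replication and 2 heat shock genes; for the difference this setting is the fit already given. Leaving out each replicate gave 118 to 541 genes with PBS (39 to 207 higher, 79 to 369 lower), 423 to 628 with PM (251 to 385 higher, 172 to 280 lower) and 106 to 282 for the difference (65 to 187 and 41 to 117). The list counts then ran from 18 to 42 for mitosis, 5 to 27 for replication and 1 to 14 for heat shock. DESeq2, limma-voom, upper-quartile scaling, library totals and a 5 CPM filter kept these counts within 1.5-fold. Of 104 called genes named, 32 kept their call in every alternative. The cause of these changes was not tested, beyond fewer samples or other genes being fitted.

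Whether the replicate numbers of the labels pair the samples cannot be decided from so few samples. Same-numbered samples correlated at 0.008, -0.087 and 0.075 with PBS and at 0.116 and 0.049 with PM after group means were removed. Pairs with different numbers correlated at -0.13 to 0.077 with PBS and at -0.071 to 0.066 with PM. With the replicate number as a block, 240 genes passed with PBS (82 higher, 158 lower), 504 with PM (301 higher, 203 lower), and 3 heat shock genes rose; mitosis and replication counts were 31 and 15.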

Other observations

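Some single genes that act in the cell cycle or in repair, chosen after their values were seen and not standing for a list, also passed the test in PBS animals. Foxm1, a transcription factor of mitotic genes, was at 39.6, 28.8, 32.7 and 20.9 CPM with vehicle and at 19.2, 18.5 and 17.3 CPM with metformin (log2 fold change -0.74, adjusted p = 0.0122, edgeR's quasi-likelihood test). Mybl2, its partner at mitotic promoters, fell by 0.65 (adjusted p = 0.0458) with overlap between the groups, and E2f7 and E2f8, atypical E2F repressors made in S phase, fell by 0.88 and 0.95 (adjusted p = 0.0134 and 0.00868). Ccnd2, cyclin D2, was at 458, 325, 392 and 398 CPM with vehicle and at 302, 276 and 290 CPM with metformin (log2 fold change -0.44, adjusted p = 0.00878). Fancd2, Blm and Brca1, which act in DNA repair, fell by 0.84, 0.95 and 0.73 (adjusted p = 0.00437, 0.00665 and 0.0172). The calls of Ccnd2 and Fancd2 held when each sample was left out, and those of Foxm1, Mybl2, E2f7, E2f8, Blm and Brca1 were lost without metformin replicate 4 (adjusted p = 0.0849, 0.209, 0.09, 0.062, 0.052 and 0.113). Those of Mybl2, E2f7 and Brca1 were also lost without vehicle replicate 1, among others for Mybl2 and Brca1. Outside the lists, the largest falls included Parpbp, Cenpn, Depdc1a and Shcbp1 (-1.20, -1.14, -1.12 and -1.10), whose calls held in each such fit.

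Of 11 tested genes with a tubulin symbol 6 fell and none rose, beside 1.99% and 1.1% of all genes tested. This group was looked at after its values were seen. Tuba1b was among the 6 that fell, at 206, 181, 197 and 166 CPM with vehicle and 158, 144 and 137 CPM with metformin (log2 fold change -0.36, adjusted p = 0.00437). Actb, β-actin, had 8466, 8147, 7877 and 8119 CPM with vehicle and 7470, 7279 and 6583 CPM with metformin, and fell by 0.20 (adjusted p = 0.012), while the actin-binding Lcp1 fell by 0.19 (adjusted p = 0.00905). Actb and Lcp1 lost their calls without metformin replicate 4 (adjusted p = 0.128 and 0.0542). The call of Actb was also lost without vehicle replicate 1. Genes of this and the preceding paragraph other than the 4 largest falls were chosen after their values were seen.

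Further lists are given beside the share of all genes that passed in PBS animals (3.09%, with 1.1% higher and 1.99% lower). Most are short, so no call or a few calls are not read as a result about a list. None of 74 ribosomal protein genes, 39 lysosome genes, 31 immediate early genes, 28 genes of store-operated calcium entry, 15 dual-specificity phosphatases or 11 complement genes passed the test by edgeR; 1, 6, 5, 4, 2 and 2 of them had an unadjusted p under 0.05. DESeq2 called 1 lysosome and 1 immediate early gene and limma-voom none. Counts of genes that rose and fell were 1 and 0 of 25 for NF-kB feedback, 2 and 0 of 28 for CREB, 1 and 1 of 22 for glucocorticoid-induced, 2 and 1 of 20 for metal-responsive, 0 and 1 of 16 for hypoxia-response, 1 and 0 of 13 for coagulation, 0 and 1 of 11 for Kruppel-like and 1 and 1 of 18 for fatty acid synthesis genes. Among 28 genes of fatty acid oxidation, Acot1, a thioesterase, was at 67.4, 62.2, 56.4 and 61.3 CPM with vehicle and 47.8, 46.4 and 45.1 CPM with metformin (log2 fold change -0.41, adjusted p = 0.00441). Of 30 tested NRF2 targets Me1 alone passed, at no more than 2.23 CPM in any of the 7 samples, and its call was lost without vehicle replicate 1 or 3 or metformin replicate 3 or 4 (adjusted p up to 0.0919). Cyp26b1, which degrades retinoic acid, had 0 counts in all 4 vehicle samples and in metformin replicate 1, and 8 and 7 counts in metformin replicates 3 and 4; it was named after its values were seen, and its call was lost in 9 of 12 alternatives.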
